A study of Mus musculus with 8 samples.

Results

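The genes described here are the proteasome genes of granulosa cells from mouse ovaries. Granulosa cells are the supporting cells of the follicle that nourish the oocyte. They were chosen by symbol, as every row of the expression table whose symbol starts with Psma to Psmg followed by a number, and 49 of the 23235 gene rows matched. Of these, 31 encode constitutive subunits: 7 of the alpha ring and 7 of the beta ring of the 20S core, 6 ATPases and 11 non-ATPase subunits of the 19S regulatory particle. Another 5 are immunoproteasome genes (Psmb8, Psmb9, Psmb10, Psme1 and Psme2), which are given apart. The remaining 13 were 2 tissue-restricted subunits, 4 assembly chaperones of the core, 3 of the regulatory particle, 2 activators, 1 inhibitor and Psmc3ip. Psmc3ip matched by symbol alone: it encodes a partner protein in meiotic recombination and not a proteasome subunit.

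The groups were CNOT6/6L knockout (KO) cells 44 h after PMSG, untreated KO cells (0 h), wild-type (WT) cells 44 h after PMSG, and untreated WT cells, all from female C57BL/6 mice, with 2 libraries per group. PMSG is pregnant mare serum gonadotropin, which acts like follicle-stimulating hormone, and CNOT6 and CNOT6L are deadenylases of the CCR4-NOT complex that shorten the poly(A) tails of mRNA. The labels gave no age or PMSG dose, did not say how or in which cells the 2 genes were deleted, and did not say whether replicates came from separate animals. P-values therefore speak of library-to-library spread alone, and that spread may be technical.

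The proteasome degrades proteins tagged with ubiquitin. Its barrel-shaped core holds the peptide-cutting beta subunits between rings of alpha subunits that gate entry, and the regulatory particle binds the tagged protein, removes the ubiquitin, unfolds the chain and feeds it in. Interferon-gamma and immune cell types bring in the inducible catalytic subunits Psmb8, Psmb9 and Psmb10, which replace Psmb5, Psmb6 and Psmb7 in newly built cores and change the peptides offered to MHC class I. Subunit genes of the constitutive particle are known to be expressed together, and the transcription factor Nfe2l1 raises them when proteasomes are inhibited. In ovarian follicles, protein turnover by proteasomes accompanies the growth and maturation of the cells.

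Values are FPKM, fragments scaled to transcript length and library size, so levels of different genes can be set side by side. Relative depth, read from the steps between low FPKM values, was 0.904 to 1.25 times the median library, and FPKM sums were 675557 to 753216. The deleted genes were read beside the labels. How they were deleted is not known, so their FPKM cannot settle the genotype of a library. Cnot6 was 26.7 and 17.4 FPKM in KO cells at 44 h and 11.7 and 12.0 in untreated KO cells. In WT cells it was 26.0 and 26.9 at 44 h and 29.1 and 18.4 without PMSG (replicates 1 and 2 in each case). Cnot6l was 2.01 and 1.61 in KO cells at 44 h and 4.69 and 1.97 in untreated KO cells, against 4.20 and 2.63 in WT cells at 44 h and 6.11 and 7.07 in untreated WT cells. For Cnot6, the 44 h library labelled KO replicate 1 lay within the WT range, but for Cnot6l it lay below all WT libraries. For Cnot6l, the untreated library labelled KO replicate 1 lay below both untreated WT libraries but above both WT libraries at 44 h. The 44 h library also stood apart in luteal and steroid markers, whose 8 genes summed to 2865 FPKM there and 10969 in its replicate, against 11574 and 13888 in WT at 44 h. All 16 granulosa markers were tested and none was at 0. Their sums were 30080 and 23873 FPKM in KO cells at 44 h and 15222 and 15350.0 in untreated KO cells, against 17646 and 20966 in WT cells at 44 h and 15219 and 13275 in untreated WT cells. Most of each sum was Inha, with 23238 and 13862 FPKM in KO cells at 44 h and 10254 and 10433 in untreated KO cells. In WT cells Inha was 10434 and 13006 at 44 h and 9427.5 and 8434 without PMSG. With PMSG, 11 of the 16 granulosa markers were positive and 5 negative in each genotype. Oocyte markers were present in all libraries, with 23 of 23 tested genes positive in KO against WT at both times and 23 of 23 negative with PMSG in each genotype. In bulk samples such as these, fewer cells of a type and less RNA per cell cannot be told apart.

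The constitutive subunits were among the abundant transcripts of these cells. Their mean levels over the 8 libraries ran from 76.8 FPKM (Psmd3) to 962 FPKM (Psma2), with a median of 259 FPKM, and summed to 1.28% to 1.60% of a library's FPKM. Psma2, an alpha-ring subunit, was highest with 1388 and 939.6 FPKM in KO cells at 44 h and 771 and 1021 in untreated KO cells, against 800.2 and 939.7 in WT cells at 44 h and 994 and 844 in untreated WT cells. Psma7, also of the alpha ring, was second with 1032 and 827 FPKM in KO cells at 44 h and 828 and 875 in untreated KO cells, against 799 and 903 in WT cells at 44 h and 851 and 767 in untreated WT cells. Psmb6, which carries the caspase-like activity of the core, came next with 871 and 708 FPKM in KO cells at 44 h and 613 and 711 in untreated KO cells, against 691 and 900.5 in WT cells at 44 h and 774 and 662 in untreated WT cells. For these 3 genes the groups overlapped, and so did the ranges of neighbours in the order over all libraries. Within each library Psma7 lay above Psmb6. Psma2 lay above Psma7 except in untreated KO replicate 1 (771 against 828).

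At the low end stood 3 non-ATPase subunits of the regulatory particle. Psmd3 had 89.0 and 79.0 FPKM in KO cells at 44 h and 75.1 and 67.1 in untreated KO cells, against 80.1 and 81.9 in WT cells at 44 h and 64.0 and 77.9 in untreated WT cells. Psmd13 had 127 and 103 FPKM in KO cells at 44 h and 84.0 and 85.2 in untreated KO cells, against 110.2 and 127 in WT cells at 44 h and 97.6 and 96.5 in untreated WT cells. Psmd1, a large scaffold that receives ubiquitin-binding factors, had 133 and 122 FPKM in KO cells at 44 h and 95.6 and 121 in untreated KO cells, against 115 and 141 in WT cells at 44 h and 127 and 126 in untreated WT cells.

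Although each subunit is present in the assembled particle in fixed numbers, the mRNA levels of the constitutive subunits differed widely among themselves. Relative to the median constitutive subunit of the same library, Psma2 was at 3.71 ± 0.594, Psma7 at 3.33 ± 0.373, Psmb6 at 2.85 ± 0.222 and Psmd3 at 0.297 ± 0.0305 (SD over 8 libraries). Across libraries Psma2 lay between 2.91 and 4.57 and Psmd3 between 0.265 and 0.355. The beta ring had the highest class median (474 FPKM), followed by the alpha ring (320 FPKM), the ATPases (233 FPKM) and the non-ATPase subunits (187 FPKM). Across the 8 libraries, the highest value of a constitutive subunit was 1.20 to 1.87 times its lowest, with a median of 1.41. The immunoproteasome genes spread more widely, up to 5.70 times for Psmb8.

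**Figure D1:**
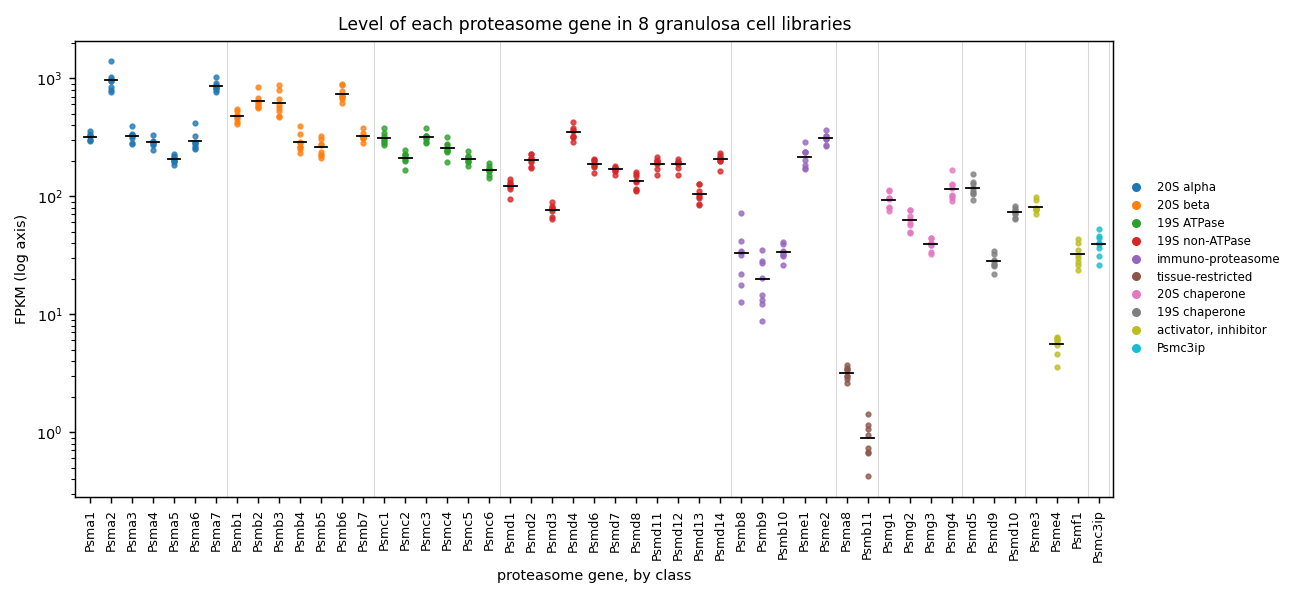
Level of each of the 49 proteasome genes in FPKM on a log axis. Each point is 1 of 8 libraries, the bar is the mean, and colours mark the class; constitutive subunits sit between 64.0 and 1388 FPKM, whereas Psmb8, Psmb9 and Psmb10 lie mostly under 50 and Psmb11 near 1.

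The first comparison asked how the proteasome genes stood 44 h after PMSG against untreated cells of the same genotype. Among the constitutive subunits, the beta ring and the 19S ATPases stood higher on average, but no member passed the test in either genotype alone. By limma on log2(FPKM + 1), adjusted over all genes, 0 of 49 members were called in WT (0.0804% of all genes were) and 0 of 49 in KO (0.139% of all genes). At an unadjusted p under 0.05, 6 members were past the threshold in WT and 7 in KO, against 24.1% and 21.1% of all genes. These shares of members lie below the background.

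The direction of the constitutive subunits was nevertheless one-sided, while most genes leaned the other way. In WT, 23 of 31 had a positive log2 change and the median was 0.13, against -0.13 over all 13688 genes tested. The WT median was 0.047 without WT replicate 2 at 44 h and 0.16 without replicate 1. In KO, 31 of 31 had a positive log2 change and the median was 0.24, against -0.11 over all genes. It was 0.16 without the replicate 1 library at 44 h and 0.16 without that at 0 h. Both comparisons rest on how the libraries are scaled. Median-of-ratios scaling moved the median of all genes to -0.0091 in WT and 0.027 in KO. Relative to the median of all genes, the constitutive median was 0.26 in WT and 0.35 in KO with the values as deposited, 0.28 and 0.37 with median-of-ratios scaling, and 0.067 and 0.19 with quantile normalization. Under quantile normalization 16 of 31 remained positive in WT and 29 of 31 in KO. The summed level of the 31 genes was 11090.1 ± 1349 FPKM in KO cells at 44 h and 9166 ± 762 in untreated KO cells, against 10308 ± 935 in WT cells at 44 h and 9429.8 ± 558 in untreated WT cells (SD, n = 2).

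The next counts are of members whose libraries did not overlap between the times. In WT, 20 of 49 members had both 44 h libraries above both 0 h libraries, against 22.5% of all genes, and 10 had both below, against 40.6%. In KO, 25 of 49 had both 44 h libraries above both 0 h libraries, against 14.3% of all genes, and 5 had both below, against 34.1%. Of the constitutive subunits alone, 16 of 31 in WT and 21 of 31 in KO were separated upward. In both genotypes at once 17 members were separated upward, against 9.18% of all genes, and 3 downward (Psme3, Psmf1 and Psmg2), against 25.4%. The 17 were Psma3 and Psma6 of the alpha ring, Psmb1, Psmb3, Psmb4, Psmb5 and Psmb7 of the beta ring, the ATPases Psmc1, Psmc4 and Psmc5, the non-ATPase subunits Psmd3, Psmd4 and Psmd13, and the immunoproteasome genes Psmb8, Psmb9, Psme1 and Psme2. Without the 44 h library labelled KO replicate 1, 28 members were separated upward in KO, against 32.6% of all genes. Without the untreated library labelled KO replicate 1 it was 26, against 25.8%. The 44 h library labelled KO replicate 1 held the highest value of 16 of the 31 constitutive genes (12.1% of all genes). The untreated library labelled KO replicate 1 held the lowest value of 21 (8.69% of all genes).

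**Figure D2:**
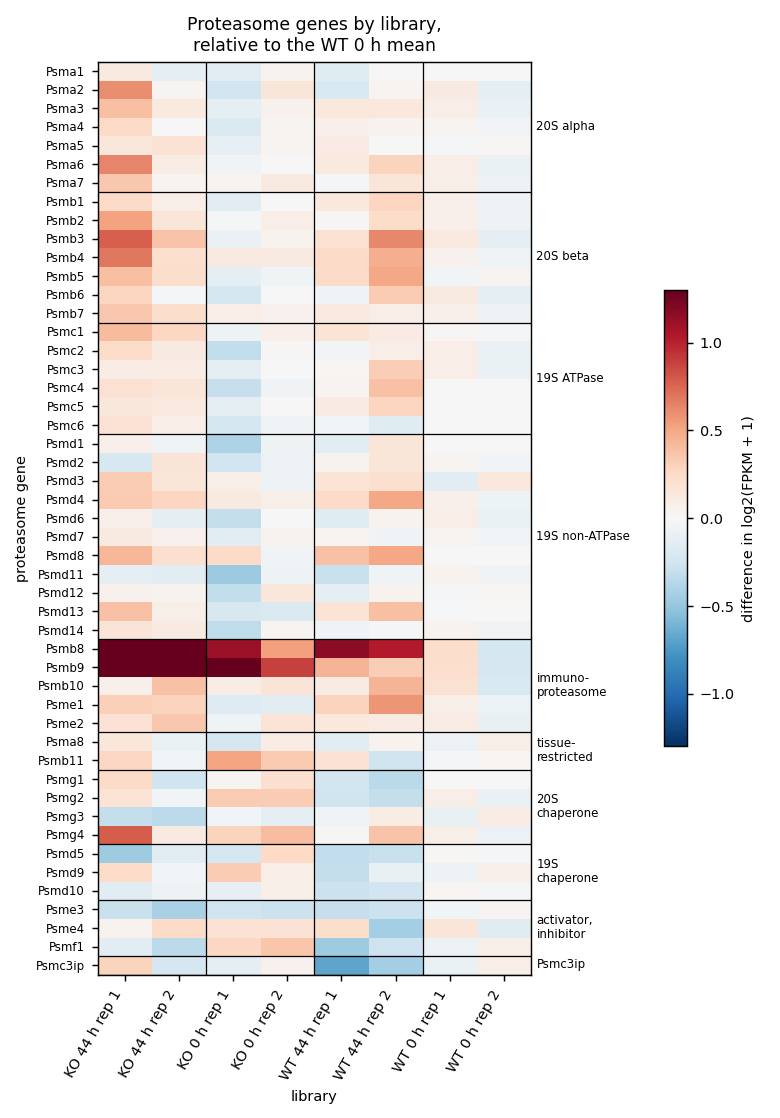
Difference of each proteasome gene from the WT 0 h mean in log2(FPKM + 1), by library, with the colour scale ending at 1.3 in either direction and values past it in the end colour. Most constitutive rows are red in the 44 h library labelled KO replicate 1 and blue in untreated KO replicate 1, while Psmb8 and Psmb9 are the darkest rows.

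Among the beta subunits, Psmb5, which carries the chymotrypsin-like activity that proteasome inhibitors target, separated by time in both genotypes. It had 304 and 271 FPKM in KO cells at 44 h and 211 and 222 in untreated KO cells, and 275 and 327 in WT cells at 44 h against 225 and 238 in untreated WT cells. Its log2 change was 0.40 (SE 0.154) in KO and 0.37 (SE 0.154) in WT, with limma adjusted p of 0.197 in both. Psmb3, a non-catalytic beta subunit, had 881 and 665 FPKM in KO cells at 44 h and 483 and 533 in untreated KO cells, and 591 and 795 in WT cells at 44 h against 563 and 471 in untreated WT cells. Its KO change of 0.59 (SE 0.223, adjusted p = 0.193) was the largest among the constitutive subunits, and its WT libraries also did not overlap.

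The other catalytic subunits had smaller log2 changes with PMSG. Psmb6, whose values are given above, overlapped between the times in both genotypes. Psmb7, which carries the trypsin-like activity, had 378 and 347 FPKM in KO cells at 44 h and 314 and 309 in untreated KO cells, and 323 and 315 in WT cells at 44 h against 311 and 282 in untreated WT cells. Its times did not overlap in either genotype, but its WT change of 0.11 turned to -0.020 under quantile normalization.

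In the regulatory particle, Psmd8 and Psmd13 were the subunits with the smallest p for WT and for KO. Psmd8 had 149 and 162 FPKM in WT cells at 44 h against 114 and 113 in untreated WT cells, a log2 change of 0.44 (SE 0.161, limma adjusted p = 0.163). In KO it overlapped, with 154 and 131 FPKM at 44 h and 135 and 110.3 at 0 h. Psmd13, given above, differed by 0.43 in KO (SE 0.158, adjusted p = 0.189; 0.27 without replicate 1 at 44 h), and its libraries were separated by time in both genotypes. Psmd4, a receptor for ubiquitin chains, had 381 and 367 FPKM in KO cells at 44 h and 327 and 319.5 in untreated KO cells, and 358 and 427 in WT cells at 44 h against 317 and 288 in untreated WT cells.

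When the times were compared over both genotypes together, a contrast added after the data were seen, 3 of 49 members were called, against 17.5% of all genes, and 12 had an unadjusted p under 0.05, against 36.1%. Both shares of members were below the background. Psmb8 rose by 1.04 (log2, SE 0.223, limma adjusted p = 0.0277), Psme1 rose by 0.44 (SE 0.108, adjusted p = 0.0365) and Psmf1 fell by 0.46 (SE 0.112, adjusted p = 0.0364). None of the constitutive subunits was called by limma, although 7 of 31 had an unadjusted p under 0.05, all higher; Psmb5 came nearest with 0.39 (SE 0.109, adjusted p = 0.0501). Psmb5 was called when genes needed 5 FPKM (adjusted p = 0.0466), with median-of-ratios scaling (0.0456) and without KO replicate 2 at 44 h (0.0406). All 3 calls ended with a replicate block or without a filter on low values, and each also ended when single libraries were left out. Quantile normalization ended the calls of Psme1 (0.34, limma adjusted p = 0.0554) and Psmf1 (-0.39, limma adjusted p = 0.0596). Median-of-ratios scaling ended that of Psmf1 (-0.32, limma adjusted p = 0.139). The adjusted p with a replicate block was 0.0532 for Psmb8, 0.0706 for Psme1 and 0.0672 for Psmf1.

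**Figure D3:**
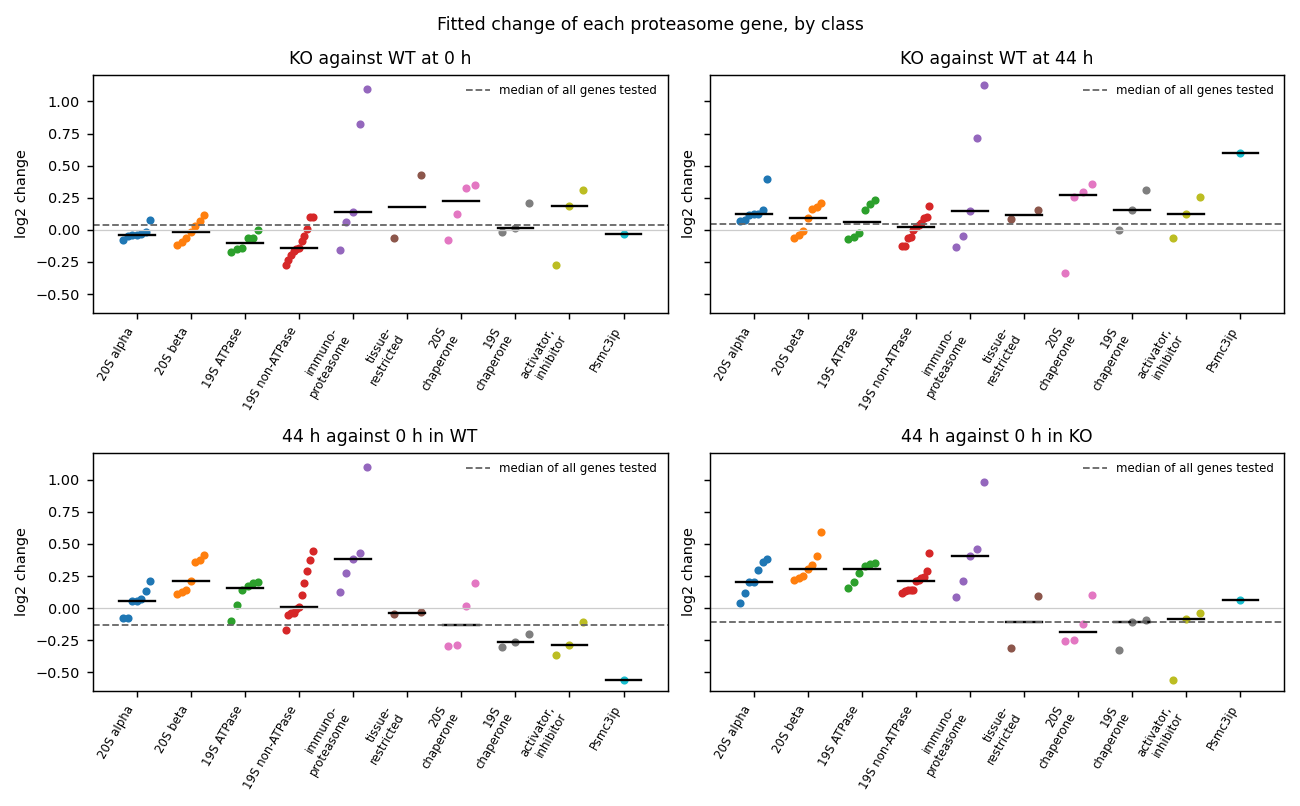
Log2 change of each proteasome gene in the 4 comparisons, by class; points are genes, solid bars class medians, and the dashed line the median of all genes tested. After PMSG (lower panels) nearly all constitutive points lie above the dashed line, while in KO against WT (upper panels) Psmb8 and Psmb9 are the points that stand far from the rest.

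The second comparison asked how KO cells differed from WT cells at the same time. At 0 h, constitutive subunits leaned slightly lower in KO, and at 44 h slightly higher, with no member called. By limma 0 of 49 members were called at 0 h, against 0.0365% of all genes, and 2 had an unadjusted p under 0.05, against 9.69%. At 44 h 0 of 49 were called, against 0.0219% of all genes, and 3 had an unadjusted p under 0.05, against 9.79%. The constitutive median was -0.060 at 0 h with 24 of 31 negative, against 0.034 over all genes, and 0.073 at 44 h with 20 of 31 positive, against 0.046. Scaling moved both: at 0 h the median was -0.14 with median-of-ratios scaling (28 negative) and -0.031 with quantile normalization, which is 0.0081 above the median of all genes. At 44 h it was 0.011 with median-of-ratios scaling and 0.11 with quantile normalization (26 positive). The sign at 44 h rested on single libraries: the median was -0.043 without the one labelled KO replicate 1 and -0.0073 without WT replicate 1. At 0 h the median was 0.015 without KO replicate 1. A difference in the constitutive subunits between the genotypes was thus not larger than the spread between replicates.

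Members whose libraries did not overlap between the genotypes were counted in the same way. These comparisons use the same 8 libraries as those of PMSG and are not independent of them. At 0 h 11 of 49 members were higher in both KO libraries than in both WT libraries, against 27.3% of all genes, and 10 were lower, against 19.1%. The 11 include Psmb11, as do the 5 members lower with PMSG in KO, and it passed the filter on low values through the KO libraries. At 44 h 15 were higher, against 23.9%, and 1 was lower (Psmg3), against 15.1%. Of the constitutive subunits 2 were higher and 8 lower at 0 h, and 8 higher and 0 lower at 44 h. At both times 4 members were higher in KO (Psmb8, Psmb9, Psmd9 and Psmg2), against 13.5% of all genes, and 0 were lower, against 5.80%. Without the 44 h library labelled KO replicate 1, 18 members were higher, against 41.9% of all genes, and 11 lower, against 28.4%.

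To show the start sites of the genes that carried the contrast between inducible and constitutive subunits, the 120 bases before the RefSeq start site (GRCm38.p6) are given for Psmb8 (chr17:34198075-34198194, plus strand), Psmb9 (chr17:34187331-34187450, minus strand), Psmb5 (chr14:54617996-54618115, minus strand) and Psmb6 (chr11:70525237-70525356, plus strand). Capitals mark a match to TTCNNNGAA in Psmb8, to CCAAT on the other strand in Psmb9, and to TGACNNNGC in Psmb5 and Psmb6.
Psmb8: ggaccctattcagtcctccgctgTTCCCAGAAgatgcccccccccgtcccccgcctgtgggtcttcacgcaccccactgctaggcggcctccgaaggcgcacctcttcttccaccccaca
Psmb9: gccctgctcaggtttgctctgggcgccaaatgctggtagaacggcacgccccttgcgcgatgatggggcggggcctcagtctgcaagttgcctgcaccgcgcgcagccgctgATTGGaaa
Psmb5: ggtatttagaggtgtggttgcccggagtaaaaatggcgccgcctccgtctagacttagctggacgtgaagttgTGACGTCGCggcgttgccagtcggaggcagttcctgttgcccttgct
Psmb6: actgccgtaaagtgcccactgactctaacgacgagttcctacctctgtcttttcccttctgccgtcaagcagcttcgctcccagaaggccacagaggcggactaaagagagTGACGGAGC

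Psmb8 and Psmb9 lie close together on chromosome 17, and Psmb5 and Psmb6 on other chromosomes. Promoters of 41 of the 49 genes were found in the RefSeq table, as 44 sequences of 300 bases, and 5 motifs were searched on both strands. TGACNNNGC, the antioxidant response element type bound by factors such as Nfe2l1, was in 4 of 27 promoters of constitutive subunits (14.8%) and 0 of 6 of immunoproteasome genes, against 12.4% of all 32851 promoters. Its full form TGACTCAGC, which overlaps it, was in 0 of 44, against 0.454%. The interferon-stimulated response element type, read as GAAA, any 2 bases and GAAA, was in 5 of 44 (11.4%), against 3.44%, and among the immunoproteasome genes only in Psme1. TTCNNNGAA, the interferon-gamma activated site type, was in 3 of 44 (6.82%), against 8.30%, and CCAAT was in 15 of 44 (34.1%), against 37.4%. A match is a description of letters and not of binding.

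The immunoproteasome genes held the largest genotype differences among the 49. Psmb9, the inducible subunit that takes the place of Psmb6, had 28.3 and 34.7 FPKM in KO cells at 44 h and 27.2 and 20.2 in untreated KO cells, against 14.5 and 13.2 in WT cells at 44 h and 12.3 and 8.76 in untreated WT cells. All 4 KO libraries lay above all 4 WT libraries. The log2 difference was 1.10 at 0 h (SE 0.230, limma adjusted p = 0.271) and 1.13 at 44 h (SE 0.230, adjusted p = 0.457). Over both times together, a contrast added after the data were seen, it was 1.11 (SE 0.162, adjusted p = 0.0740). In that contrast 0 of 49 members were called, against 0.110% of all genes, and 3 had an unadjusted p under 0.05, against 17.0%. Without KO replicate 2 at 44 h, Psmb9 was at 1.04 (limma adjusted p = 0.0226), but 9.80% of all genes were called there, and the lone KO library left at 44 h is the one with Cnot6 in the WT range and takes its spread from the other groups. Without that library the difference was 1.18.

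Psmb8, the inducible partner of Psmb5, had 41.9 and 71.9 FPKM in KO cells at 44 h and 33.6 and 22.0 in untreated KO cells, against 34.6 and 31.7 in WT cells at 44 h and 17.6 and 12.6 in untreated WT cells. KO lay above WT at each time and 44 h above 0 h in each genotype, without overlap within either pair. The difference from WT was 0.82 at 0 h (SE 0.315, limma adjusted p = 0.480) and 0.71 at 44 h (SE 0.315, adjusted p = 0.526). The change with PMSG was 0.99 in KO (SE 0.315, adjusted p = 0.152) and 1.10 in WT (SE 0.315, adjusted p = 0.119). The WT change was called when the fit held the WT groups alone (adjusted p = 0.0398) or left out either KO library at 44 h (adjusted p = 0.0423 each time), settings in which 6.90% and 9.72% to 9.74% of all genes were called. The KO change rested on single libraries. It was 1.37 without the 44 h library labelled KO replicate 1 and 0.60 without replicate 2, each leaving 1 library whose spread is taken from the other groups. In the first of these it was called (limma adjusted p = 0.0431), as were 8.54% of all genes. The KO difference at 0 h was 0.53 without KO replicate 1 and 1.12 without replicate 2.

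Psmb10, the inducible partner of Psmb7, did not follow them. It had 31.2 and 39.2 FPKM in KO cells at 44 h and 32.0 and 33.7 in untreated KO cells, against 32.1 and 40.8 in WT cells at 44 h and 34.3 and 25.9 in untreated WT cells. The groups overlapped in every comparison, and the difference between KO and WT over both times was 0.045 (SE 0.148, limma adjusted p = 0.908), turning to -0.024 under median-of-ratios scaling.

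Psme1 and Psme2 encode the alpha and beta subunits of the interferon-inducible activator ring that caps the core. Psme1 had 239 and 237 FPKM in KO cells at 44 h and 171 and 174 in untreated KO cells, and 236 and 287 in WT cells at 44 h against 204 and 183 in untreated WT cells. It separated by time in both genotypes, by 0.46 in KO (SE 0.153, limma adjusted p = 0.163) and 0.43 in WT (SE 0.153, adjusted p = 0.158), and lay lower in KO than in WT at 0 h. Psme2 had 326 and 362 FPKM in KO cells at 44 h and 274 and 322 in untreated KO cells, against 314 and 307 in WT cells at 44 h and 305 and 267 in untreated WT cells. Its differences were 0.21 with PMSG in KO and 0.12 in WT, the WT value turning to -0.013 under quantile normalization. Reads of Psme2 are uncertain, since the reference also holds a near-copy, Psme2b, which has no row in the table.

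**Figure D4:**
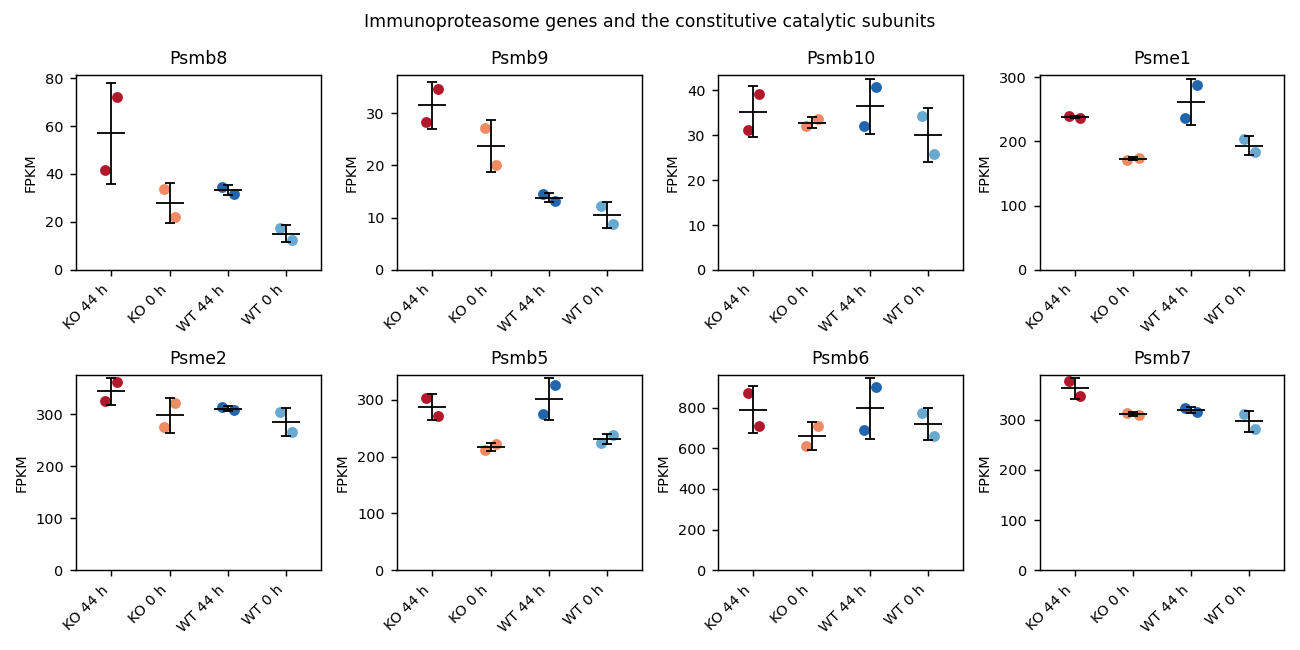
FPKM of the 5 immunoproteasome genes and the 3 constitutive catalytic subunits in each group, with points for libraries and bars for mean ± SD (n = 2). Psmb9 lies higher in all 4 KO libraries, between 20.2 and 34.7, than in WT, between 8.76 and 14.5, whereas the KO and WT libraries of Psmb10 and Psmb6 overlap.

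Immune cells express these genes strongly, and leukocyte markers were read beside them. Of 19 leukocyte markers tested, 17 were positive in KO against WT at 0 h and 18 at 44 h, with none called. At an unadjusted p under 0.05 there was 1 at each time, against 9.69% of all genes at 0 h and 9.79% at 44 h. The 25 listed markers found in the table summed to 625 and 647 FPKM in KO cells at 44 h and 1087 and 205 in untreated KO cells, against 430.0 and 321 in WT cells at 44 h and 309 and 266 in untreated WT cells. Ptprc, the pan-leukocyte marker, was 0.837 and 2.76 FPKM in KO cells at 44 h and 1.84 and 0.560 in untreated KO cells, against 1.06 and 0.566 in WT cells at 44 h and 0.752 and 0.634 in untreated WT cells. At 0 in at least 1 library were 4 markers, the T cell marker Cd3e, the natural killer cell marker Ncr1, S100a8 and S100a9. Untreated KO replicate 1 had the highest leukocyte sum of the 8 libraries, with 33.6 FPKM of Psmb8 and 27.2 of Psmb9. Untreated KO replicate 2 had the lowest sum, with 22.0 and 20.2. The highest Psmb8 and Psmb9, 71.9 and 34.7 FPKM, were in KO replicate 2 at 44 h, where the leukocyte sum was 647. The 23 oocyte markers summed to 4236 and 2512 FPKM in KO cells at 44 h and 8980.5 and 7682 in untreated KO cells, against 1776 and 1790.1 in WT cells at 44 h and 3192 and 5429 in untreated WT cells. The part of leukocytes and of oocytes in the results on the immunoproteasome genes was not tested.

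Genes of MHC class I loading and the interferon response, which work with the immunoproteasome in antigen presentation, were read beside it. Of 16 tested, 4 had an unadjusted p under 0.05 in KO against WT at each time, all higher, and none was called at either time. The share of all genes past that unadjusted threshold was 9.69% at 0 h and 9.79% at 44 h. H2-K1, a class I heavy chain, had 384 and 331 FPKM in KO cells at 44 h and 211 and 167 in untreated KO cells, against 165 and 173 in WT cells at 44 h and 109 and 81.5 in untreated WT cells. Its difference from WT was 1.07 at 44 h (SE 0.199, limma adjusted p = 0.457) and 0.98 at 0 h (SE 0.199, adjusted p = 0.271). Irf1, an interferon-response factor that drives Psmb9 and Tap1, was 24.8 and 18.1 FPKM in KO cells at 44 h and 42.8 and 36.6 in untreated KO cells, against 14.4 and 14.0 in WT cells at 44 h and 23.2 and 30.8 in untreated WT cells. It lay higher in KO at each time and lower at 44 h in each genotype. With PMSG, 4 of the 16 genes had an unadjusted p under 0.05 upward and 1 downward in KO, and 4 upward and 2 downward in WT. Among all genes 21.1% in KO and 24.1% in WT were past that threshold. Over both genotypes, where 17.5% of all genes were called, 3 were called higher and 1 lower, which was Irf1 (-0.87, adjusted p = 0.0213).

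The balance between inducible and constitutive catalytic subunits was read as the ratio of (FPKM + 1) within each library, from the values as deposited. A factor common to all genes of a library cancels there, apart from the added 1. Quantile normalization would not cancel in such a ratio. Psmb8 over Psmb5 was 14.1% and 26.8% in KO cells at 44 h and 16.3% and 10.3% in untreated KO cells, against 12.9% and 9.96% in WT cells at 44 h and 8.26% and 5.71% in untreated WT cells. Psmb9 over Psmb6 was 3.36% and 5.04% in KO cells at 44 h and 4.59% and 2.97% in untreated KO cells, against 2.23% and 1.58% in WT cells at 44 h and 1.72% and 1.47% in untreated WT cells. Psmb10 over Psmb7 was 8.52% and 11.6% in KO cells at 44 h and 10.5% and 11.2% in untreated KO cells, against 10.2% and 13.2% in WT cells at 44 h and 11.3% and 9.50% in untreated WT cells. The first ratio was higher in KO than in WT at each time without overlap, and so was the second, while Psmb10 over Psmb7 overlapped at each time.

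With 2 libraries against 2, an exact permutation test cannot go below p = 0.333, and it gave 0.333 for the KO difference of the first 2 ratios at each time. Permuted within times over all 8 libraries (exact, two-sided, 36 arrangements), the log2 difference was 0.85 for Psmb8 over Psmb5 and 1.17 for Psmb9 over Psmb6. Both had an exact permutation p of 0.0556, the smallest this design allows. Psmb10 over Psmb7 differed by -0.082 (exact permutation p = 0.611). With PMSG the ratio of Psmb8 to Psmb5 was separated in WT (difference 0.72) but overlapped in KO (0.58).

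**Figure D5:**
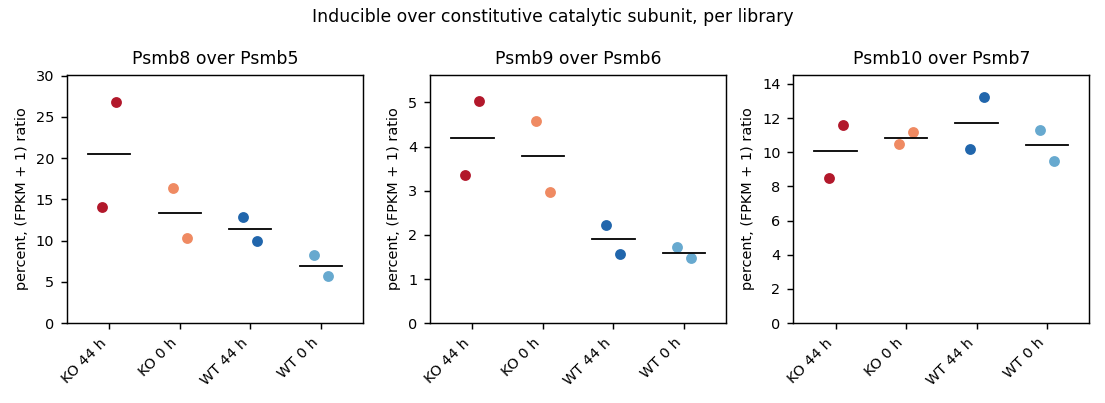
Ratio of each inducible catalytic subunit to the constitutive one it replaces, in percent, from (FPKM + 1) in each library; points are libraries and bars group means (n = 2). Psmb8 over Psmb5 and Psmb9 over Psmb6 are higher in KO than in WT at each time, and Psmb10 over Psmb7 lies between 8.52% and 13.2% in all groups.

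The other activators and the inhibitor had negative log2 changes with PMSG, 3 of 3 in each genotype, and Psmf1 was the member that kept this sign under both other scalings in KO. Psmf1, which binds the core and inhibits it in vitro, had 30.0 and 26.0 FPKM in KO cells at 44 h and 40.2 and 43.0 in untreated KO cells, and 23.8 and 27.4 in WT cells at 44 h against 31.4 and 35.2 in untreated WT cells. It was lower at 44 h without overlap in each genotype, by -0.56 in KO (SE 0.159, limma adjusted p = 0.133) and -0.37 in WT (SE 0.159, adjusted p = 0.214). Psme3, the nuclear activator, had 77.6 and 70.8 FPKM in KO cells at 44 h and 79.2 and 78.0 in untreated KO cells, and 76.8 and 78.3 in WT cells at 44 h against 92.5 and 97.7 in untreated WT cells. It lay lower in KO than in WT at 0 h (-0.27, SE 0.131, adjusted p = 0.575) and lower at 44 h in WT (-0.29, SE 0.131, adjusted p = 0.230). Its KO change of -0.083 turned to 0.074 under median-of-ratios scaling. Psme4, an activator linked to histone turnover, was low, at 5.44 and 6.42 FPKM in KO cells at 44 h and 6.12 and 6.09 in untreated KO cells, against 6.30 and 3.59 in WT cells at 44 h and 5.96 and 4.57 in untreated WT cells. All its groups overlapped, apart from KO against WT at 0 h, and its PMSG changes of -0.039 in KO and -0.11 in WT turned positive under both other scalings.

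The assembly chaperones, which help to build the core and the regulatory particle and are not part of the finished proteasome, did not share the upward lean of the subunits. With PMSG 3 of 4 core chaperones and 3 of 3 chaperones of the regulatory particle were negative in KO, and 2 of 4 and 3 of 3 in WT, with none called. Under median-of-ratios scaling the KO values of Psmg1, Psmd9 and Psmd10 turned positive. Psmg2, a core chaperone that pairs with Psmg1, had 68.4 and 58.9 FPKM in KO cells at 44 h and 75.8 and 75.8 in untreated KO cells, against 50.1 and 48.4 in WT cells at 44 h and 64.0 and 56.7 in untreated WT cells. It was higher in KO at each time and lower at 44 h in each genotype, without overlap; its KO difference was 0.36 at 44 h (SE 0.145, limma adjusted p = 0.506) and 0.33 at 0 h (SE 0.145, adjusted p = 0.533).

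Psmd9, a chaperone of the regulatory particle, had 32.4 and 26.5 FPKM in KO cells at 44 h and 34.4 and 29.1 in untreated KO cells, against 21.7 and 25.4 in WT cells at 44 h and 26.0 and 28.5 in untreated WT cells. Its KO libraries lay above the WT libraries at each time by a narrow margin (0.26 over both times, SE 0.126, limma adjusted p = 0.354). Psmg3 was the member lower in KO at 44 h, with 33.3 and 32.7 FPKM in KO against 39.9 and 44.3 in WT (-0.34, SE 0.146, adjusted p = 0.516). At 0 h it had 40.4 and 38.3 in KO and 38.7 and 44.6 in WT, which overlapped.

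The tissue-restricted subunits were near the floor of the table. Psma8, the alpha subunit of the testis, had 3.68 and 2.98 FPKM in KO cells at 44 h and 2.61 and 3.52 in untreated KO cells, against 2.82 and 3.36 in WT cells at 44 h and 3.02 and 3.44 in untreated WT cells. Psmb11, the beta subunit of the thymic cortex, had 1.06 and 0.659 FPKM in KO cells at 44 h and 1.43 and 1.15 in untreated KO cells, against 0.942 and 0.426 in WT cells at 44 h and 0.676 and 0.732 in untreated WT cells. It passed the filter of 1 FPKM in at least 2 libraries through the KO libraries, which were the ones that reached 1, so its separation from WT at 0 h is no finding. Psmc3ip, which is not a subunit, had 52.4 and 36.6 FPKM in KO cells at 44 h and 39.3 and 44.5 in untreated KO cells, against 26.2 and 31.2 in WT cells at 44 h and 40.1 and 45.6 in untreated WT cells. It was low in both WT libraries at 44 h, with a log2 change of -0.56 in WT (SE 0.208, limma adjusted p = 0.167) and a KO difference at 44 h of 0.60 (SE 0.208, adjusted p = 0.497). That difference was 0.35 without the 44 h library labelled KO replicate 1 and 0.85 without replicate 2.

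Whether the PMSG change differed between the genotypes was tested as an interaction, the KO change minus the WT change. By limma 0 of 49 members were called, against 0.0438% of all genes, and 0 had an unadjusted p under 0.05, against 1.82%. The constitutive median was 0.15 with 27 of 31 positive, against -0.0058 over all genes, and it was 0.023 without the 44 h library labelled KO replicate 1. The member with the smallest p was Psmc3ip (0.63, SE 0.294), followed by Psmc6 (0.38, SE 0.199), Psmd14 (0.33, SE 0.229) and Psmc2 (0.31, SE 0.237), each with a limma adjusted p of 1.000. Single libraries moved them: Psmd14 and Psmc2 were at 0.14 each without KO replicate 1 at 0 h, and Psmc3ip was at 0.38 without the 44 h library labelled KO replicate 1. Psmd14, which cleaves ubiquitin from the substrate, had 232 and 224 FPKM in KO cells at 44 h and 164 and 212 in untreated KO cells, against 199 and 203 in WT cells at 44 h and 213 and 199.8 in untreated WT cells. Psmc2, an ATPase, had 248 and 227 FPKM in KO cells at 44 h and 168 and 212 in untreated KO cells, against 204 and 222 in WT cells at 44 h and 223 and 197 in untreated WT cells.

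Across the 8 libraries the constitutive subunits varied together to different degrees. The Pearson correlation of log2(FPKM + 1) with the mean of the other constitutive subunits ranged from 0.24 (Psmd2) to 0.96 (Psmb3), with a median of 0.77, and 14 of 31 were above 0.8. It was above 0.8 for 6 of 7 beta subunits and 4 of 6 ATPases but for 1 of 11 non-ATPase subunits (Psmd13). Of the immunoproteasome genes, Psme1 stood at 0.82, Psme2 at 0.61, Psmb8 at 0.41, Psmb10 at 0.41 and Psmb9 at 0.18. All but Psmb9 lay within the range of the constitutive subunits. Values were negative for Psmf1 (-0.57), Psme3, Psme4, 3 of 4 core chaperones and 3 of 3 chaperones of the regulatory particle. The genes of the whole table most like the constitutive mean were Id3 (0.98), Cope, Ndufs5, Ndufa6 and Cdkn3, among 8903 with a mean FPKM of at least 5. These correlations describe 8 libraries that share 4 conditions and a common scaling: the constitutive mean had r = 0.87 with the FPKM sum of the library and 0.25 with the mean of ribosomal protein genes.

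The replicates at 44 h in KO differed in the proteasome genes, while over all genes tested replicate 1 minus replicate 2 had a median of -0.012 (log2). Of 31 constitutive subunits 29 were higher in the library labelled KO replicate 1 than in replicate 2, by a median of 0.16 (log2). Of 79 ribosomal protein genes 78 were higher there, by a median of 0.79. Of the 5 immunoproteasome genes 4 were lower in it, by a median of -0.28.

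Genes that act with the proteasome under other symbols were read as lists. Of 16 proteasome-associated genes tested, such as the maturation factor Pomp and the deubiquitinase Usp14, none was called in KO against WT or with PMSG in either genotype. In KO, 0 were higher and 1 lower with PMSG at an unadjusted p under 0.05, and in WT 1 was higher (Pomp) and 1 lower. The share of all genes past that threshold was 21.1% in KO and 24.1% in WT. Pomp, which completes core assembly, had 309 and 344 FPKM in KO cells at 44 h and 259.7 and 299 in untreated KO cells, and 369 and 397 in WT cells at 44 h against 312 and 276 in untreated WT cells. Akirin2, which brings proteasomes into the nucleus, moved the other way, with 17.5 and 14.3 FPKM in KO cells at 44 h and 36.7 and 26.3 in untreated KO cells, and 11.7 and 12.4 in WT cells at 44 h against 14.3 and 23.6 in untreated WT cells. It fell by 0.75 over both genotypes (SE 0.192, limma adjusted p = 0.0404). Akirin2 was the 1 gene of these 16 called in that contrast, against 17.5% of all genes.

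Of 11 regulators of proteasome genes tested, none was called in the comparisons at one time or in one genotype. Nfe2l1 had 49.2 and 38.9 FPKM in KO cells at 44 h and 41.4 and 33.3 in untreated KO cells, against 43.2 and 40.7 in WT cells at 44 h and 43.1 and 41.1 in untreated WT cells, so the groups overlapped. Mafk, a small partner of such factors, had 7.69 and 5.69 FPKM in KO cells at 44 h and 14.5 and 11.3 in untreated KO cells, and 7.09 and 7.36 in WT cells at 44 h against 13.1 and 14.2 in untreated WT cells. It fell by 0.85 over both genotypes (SE 0.147, limma adjusted p = 0.0211). Mafk was the 1 gene of these 11 called in that contrast, against 17.5% of all genes. Of 8 ubiquitin and E1 genes, 0 were called in any comparison and 0 had an unadjusted p under 0.05 by limma. Ubb, which encodes ubiquitin, had 1516 and 1669 FPKM in KO cells at 44 h and 1686 and 1668 in untreated KO cells, against 1448 and 1494 in WT cells at 44 h and 1526 and 1365 in untreated WT cells.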

How the data were processed

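RNA from 8 granulosa cell libraries was measured by paired-end Illumina sequencing, per the labels. The authors deposited 1 table of FPKM values with a column per library. TopHat2 2.1.1, Cufflinks 2.2.1 and mm9 are named per the submitters' processing notes, while for the annotation and for filters the sources used here give nothing. Promoter sequences came from RefSeq on GRCm38.p6, another build, and no coordinates were joined to the FPKM.

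FPKM are not counts, so log2(FPKM + 1) was fitted with limma 3.58.1 in R 4.3.3 (mean-variance trend, two-sided, 4 group means, 4 residual degrees of freedom) over the 13688 genes with at least 1 FPKM in at least 2 libraries. Fold changes are on that scale and understate the change of low genes. Adjusted p-values are Benjamini-Hochberg values over all genes tested, called under 0.05. There were 5 comparisons, and 2 over both times or genotypes were added after seeing the data. The script was tested on simulated data.

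All 49 members passed the filter. Named with values were the catalytic, immunoproteasome and other special members, the 3 highest and lowest constitutive subunits, the called members, and the 4 with the smallest p per comparison. Psmb3, Psmd4 and some genes of the other lists were chosen after their values were seen. The members and the gene lists were chosen with earlier results of these data known. Same-numbered libraries deviated together with correlations between -0.113 and -0.0068, so the numbers were not taken as pairs. Replicates shared 0 equal values above 0 and correlated at 0.930 to 0.966. Protein sequences were not analysed here.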

Additional observations from a re-analysis of the deposited data

Results flagged for a closer look

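Psmc6, an ATPase of the regulatory particle, moved in opposite directions in the genotypes. It had 193 and 179 FPKM in KO cells at 44 h and 144 and 163 in untreated KO cells, against 164 and 151 in WT cells at 44 h and 169 and 169 in untreated WT cells. Both KO libraries were higher at 44 h (0.28, log2) and both WT libraries lower (-0.10), and KO lay above WT at 44 h (0.23) but below it at 0 h (-0.14). The interaction that tests both differences was 0.38 (SE 0.199, limma adjusted p = 1.000), which did not pass. Under median-of-ratios scaling the WT change was 0.043, so the opposite directions of the PMSG change ended. The genotype difference stayed opposite there, at -0.22 at 0 h and 0.17 at 44 h. With quantile normalization the PMSG changes also stayed opposite, at -0.19 in WT and 0.22 in KO.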

How the results depend on the processing

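In the 5 planned comparisons no proteasome gene was called as analysed. Apart from leaving out single libraries, given below, the alternatives added 1 at most: Psmb8 in WT when only the WT groups were fitted. In the contrast over both genotypes, 3 members were called, 1 (Psmb8) with quantile normalization, 0 without a filter on low values and 0 with the replicate block. With median-of-ratios scaling the call of Psmf1 ended. Psmb5 was added under 3 settings given above.

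The constitutive median with PMSG moved with scaling. In WT (0.13) it was 0.0043 with quantile normalization and 0.27 with median-of-ratios scaling, in KO (0.24) it was 0.39 with median-of-ratios scaling, and over both genotypes (0.18) it was 0.067 and 0.33. Median-of-ratios scaling left 7 members separated upward in KO against WT at 0 h (11 as deposited; 22.4% of all genes under that scaling), 8 at 44 h (15; 19.8%), 5 downward with PMSG in WT (10; 31.0%) and 2 in KO (5; 24.3%). Quantile normalization left 12 upward in WT (20; 26.4% of all genes) and 17 downward (36.5%), and 2 downward in KO against WT at 44 h (1; 19.7%). Some upward counts rose. Median-of-ratios scaling gave 32 upward with PMSG in KO (25 as deposited, 22.7% of all genes) and 23 in WT (20, 29.4%). Quantile normalization gave 22 upward in KO against WT at 44 h (15, 19.4%) and 13 at 0 h (11, 21.3%).

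The count of all called genes depended strongly on the settings. KO against WT at 0 h gave 5 genes, 3 without a filter and 8 with robust empirical Bayes, and at 44 h 3 genes, or 6 with only the groups compared. With PMSG in WT, 11 genes were called, against 7 with quantile normalization, 30 with median-of-ratios scaling, 945 with only the groups compared and 34 with robust empirical Bayes. With PMSG in KO, 19 were called, against 10 and 8 with pseudocounts of 0.1 and 5, 6 without a filter, 9 with only the groups compared, 35 with robust empirical Bayes and 10 without a trend. Over both times 15 were called, against 6 without a filter and 26 with robust empirical Bayes, and over both genotypes 2396, against 1188 without a filter.

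With the replicate block, 7 genes were called with PMSG in WT, 6 in KO and 781 over both genotypes. The block changed no other call of a proteasome gene. With the numbers of the KO libraries at 44 h crossed, a pairing added after seeing the data, the block gave 3 genes in KO against WT at 0 h and 3 proteasome genes over both genotypes.

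Leaving out each library in turn gave these ranges. Genes called numbered 3 to 9 in KO against WT at 0 h, 2 to 801 at 44 h, 4 to 1333 with PMSG in WT, 3 to 1169 in KO, 6 to 78 for the interaction, 7 to 1341 over both times and 28 to 3818 over both genotypes. Leaving out single libraries also added calls of members with PMSG in WT, in KO and over both times, and added or ended them over both genotypes. Each such fit leaves 1 library in a group, so these calls are not read as results about the members. The constitutive median was -0.043 to 0.15 in KO against WT at 44 h, 0.047 to 0.16 with PMSG in WT, 0.16 to 0.34 in KO and 0.023 to 0.24 for the interaction. The immunoproteasome median was -0.037 to 0.33 in KO against WT at 0 h, 0.16 to 0.51 with PMSG in WT and -0.20 to 0.16 for the interaction. Psmb8 over both genotypes lost its call when any 1 of 5 libraries was left out (KO at 0 h, WT at 44 h, WT replicate 2 at 0 h), Psme1 with any 1 of 6 (all but KO at 44 h) and Psmf1 with any 1 of 7 (all but KO replicate 1 at 44 h). The cause was not tested for any of these. With 2 libraries a group, differences of the size seen between replicates were not detectable, and FPKM carry no counts, so no counting interval is given.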
